A study of Homo sapiens with 6 samples.

Results

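Olfactory receptor genes encode the odorant-binding G-protein-coupled receptors of the nose, and they form the largest gene family in the human genome. They lie in tandem clusters, each olfactory neuron is thought to transcribe a single allele of them, and in other cells the clusters are silent, late-replicating and often near the nuclear lamina, the protein meshwork under the nuclear envelope. The genes described here are the 220 protein-coding olfactory receptor (OR) genes on chromosomes 1 to 22 other than chromosome 11. They were taken by symbol from RefSeq and grouped into 31 clusters wherever consecutive OR genes were over 1 Mb apart. All protein-coding genes, used as a background, are the 19974 on chromosomes 1 to 22 and X. Chromosome 11 holds another 171 OR genes, which serve as the comparison.

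LaminB1, a B-type lamin, was mapped by CUT&RUN, which cuts out chromatin bound by an antibody, in HCT116, a human colorectal carcinoma line. All cells carried TOP2A tagged on both endogenous alleles with a mini auxin-inducible degron, and all were held in G1 with 2 uM palbociclib, a CDK4/6 inhibitor, for 28 h. The control group, labelled wildtype, was this TOP2A degron line with TOP2B intact and, by the names of its lists, no auxin. The double loss group was the degron line with TOP2B knocked out by CRISPR. It was kept in 500 uM auxin for 8 h, and the series text puts the loss of TOP2A at up to 95%. TOP2A and TOP2B are the type II topoisomerases, which pass one DNA duplex through another to relieve supercoils and tangles. The groups therefore differ in cell line, genotype and auxin at once, and these cannot be told apart; the sources used here do not say whether the knockout line is 1 clone. Each group has 2 LaminB1 libraries. The labels name no separate cultures, so p-values measure only the spread between libraries, which may be technical.

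For each LaminB1 library there is a list of called regions, in hg38 coordinates on a 1 kb grid. The lists held 10771 to 13599 regions with 7263458 to 8351031 LaminB1 reads. They covered 594 and 549 Mb in control 1 and 2, and 610 and 622 Mb in double loss 1 and 2. The depth of the whole libraries is unknown. Covered share means the percentage of a gene body, or of a cluster from its first to its last OR gene, that lay inside regions. A share of 0% says only that no region was called there. Among regions with the same edges in 2 lists, control library reads were equal in 44 of 44 between the controls and in 61 of 61 between the double loss lists. Between lists of different groups they were equal in at most 2 of 36, so the 2 groups were not scored against a common control library. Where all 4 lists called a stretch, the control reads of the double loss group were the denser ones, by 0.38 (log2) in the median 3 Mb window; the part of this in the calls was not tested.

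The 4 upstream sequences below, called promoters here, are shown because they stand for the kinds of behaviour described next. The gene bodies of OR11L1 on chromosome 1 and OR13C9 on chromosome 9 lay outside regions in both control lists and inside them in both double loss lists. A control 1 region began 0.104 kb upstream of OR11L1, so part of the promoter shown lies in it. OR2G3 on chromosome 1 lay wholly inside regions in all 4 lists. OR7D4 on chromosome 19, a receptor known for the steroid androstenone, lay outside regions in all 4. Each is the 250 bases upstream of the gene start in RefSeq (GRCh38.p14), 5′ to 3′ on the strand of the gene, at chr1:247841897-247842146 (minus strand), chr9:104618205-104618454 (minus), chr1:247605336-247605585 (plus) and chr19:9219590-9219839 (minus). Capitals mark each CG dinucleotide.
OR11L1: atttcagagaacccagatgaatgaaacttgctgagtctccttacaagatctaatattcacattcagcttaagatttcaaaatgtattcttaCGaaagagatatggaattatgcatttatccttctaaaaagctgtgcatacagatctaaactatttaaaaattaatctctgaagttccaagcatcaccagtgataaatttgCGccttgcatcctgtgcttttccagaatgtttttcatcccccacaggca
OR13C9: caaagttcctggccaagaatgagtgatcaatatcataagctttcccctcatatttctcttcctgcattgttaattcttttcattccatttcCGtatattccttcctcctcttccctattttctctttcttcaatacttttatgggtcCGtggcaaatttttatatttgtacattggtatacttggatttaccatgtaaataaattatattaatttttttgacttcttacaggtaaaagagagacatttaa
OR2G3: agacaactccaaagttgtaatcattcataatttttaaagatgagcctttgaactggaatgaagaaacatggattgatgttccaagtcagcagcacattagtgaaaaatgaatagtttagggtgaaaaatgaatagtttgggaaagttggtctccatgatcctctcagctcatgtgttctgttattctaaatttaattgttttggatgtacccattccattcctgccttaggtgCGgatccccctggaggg
OR7D4: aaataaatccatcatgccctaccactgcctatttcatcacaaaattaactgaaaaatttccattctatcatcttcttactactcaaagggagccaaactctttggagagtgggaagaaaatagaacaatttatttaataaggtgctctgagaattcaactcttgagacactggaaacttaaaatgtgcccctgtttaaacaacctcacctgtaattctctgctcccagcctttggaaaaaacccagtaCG

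These promoters are AT-rich and nearly free of CG, with a GC content of 35.2%, 31.6%, 38.4% and 37.6%. RefSeq promoters were matched for 178 of the 220 genes. Their median GC content was 37.8%, against 62.4% over 15810 protein-coding genes, and their median number of CG dinucleotides was 1, against 17. Genes at 0% in all 4 lists had a median GC content of 39.0% (n = 86). Genes with a covered share of at least 50% in all 4 lists had a median of 38.4% (n = 29), and those in between had 35.2% (n = 63). OR genes on chromosome 11 had 36.4% (n = 135). The TATA box letters TATAAA, sought on both strands, were in 33.1% of the members' promoters and in 9.25% of all protein-coding promoters. The homeodomain letters TAATTA, the same on both strands, were in 19.1% and 3.15%. The letters CCCNNGGG, the core of the sites of Ebf factors and the same on both strands, were in 7.87% and 19.6%. Letter matches in AT-rich sequence are a description and say nothing of binding.

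**Figure D1:**
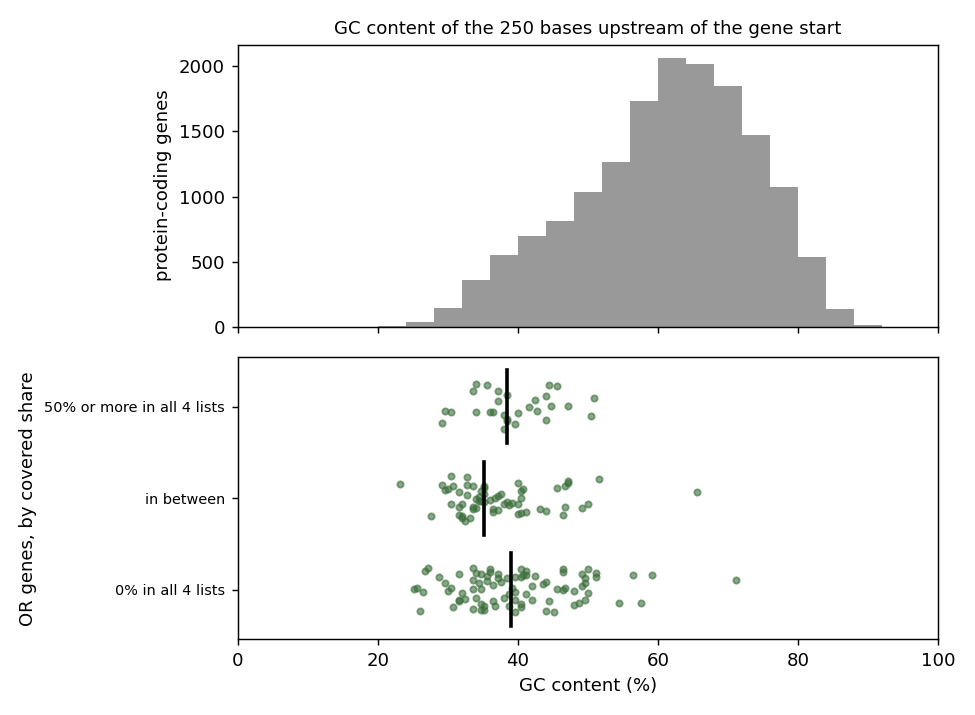
GC content of the 250 bases upstream of the gene start. The upper panel counts protein-coding genes in bins of 4 percentage points; in the lower panel each point is an OR gene off chromosome 11, placed by its covered share, and the black lines are medians at 39.0%, 35.2% and 38.4% from bottom to top. Points have a random vertical offset.

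OR genes off chromosome 11 fell into a lamina-associated and a free part, and so did those on chromosome 11. Of the 220 genes, 109 (49.5%) had covered sequence in at least 1 list, against 15.3% of all protein-coding genes, and 111 were at 0% in all 4. At least 50% of the gene body was covered in all 4 lists for 33 genes, or 15%, against 4.28% of all protein-coding genes. Both backgrounds include chromosome X, which as a whole was at only 0.00897% to 0.0276% in the 4 lists. Of the 109 genes with covered sequence, those 33 are 30.3%, against 27.9% of all 3058 genes with covered sequence. On chromosome 11, 86 of 171 OR genes (50.3%) had covered sequence and 85 were at 0% in all 4 lists. At least 50% was covered in all 4 for 31 of the 171, or 18.1%. OR genes are short, so genes that are not OR genes were also counted by length: 23.9% of those under 20 kb and 16.5% of those under 2 kb with covered sequence had at least 50% covered in all 4 lists, against 30 of 100 and 15 of 44 OR genes of these lengths. Of the 31 clusters, 11 had covered sequence. These hold 158 genes, 49 of which were still at 0% in all 4 lists. The other 20 clusters hold 62 genes.

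The clusters free of regions included every OR cluster of chromosomes 17 and 19. Chromosome 19 as a whole was at only 0.599% to 1.70% in the 4 lists, and chromosome 17 at 8.93% to 11.7%. All 20 OR genes of chromosome 19 were at 0% in all 4 lists. They include the OR2Z1 to OR7D4 cluster of 8 genes and the OR7C1 to OR10H4 cluster of 11, whose nearest called region in any list was 12660 and 5963 kb away. All 13 OR genes of chromosome 17 were at 0% as well. Of these, 11 form the OR1D5 to OR1E2 cluster, which holds OR1A1, OR1A2, OR1D2, OR1G1 and OR3A1, receptors studied for floral, fruity and citrus odorants, and lay 7345 kb from the nearest region. On chromosome 6, 16 of 17 genes were at 0%. The OR2W1 to OR2H2 cluster there, beside the major histocompatibility complex, had 1 gene with covered sequence, OR2H1, at 88.2% in double loss 2 and 0% in the other 3 lists. The OR4F genes near chromosome ends were at 0% on chromosomes 1, 5, 8 and 19; their near-identical copies can share reads, and how the authors placed such reads is not given in the sources used here. All 11 genes of the OR7 family and all 3 of the OR3 family were at 0%, while 38 of 63 OR2 genes, 9 of 11 OR13 genes and 6 of 7 OR14 genes had covered sequence. Families follow clusters, so these counts are not independent of the place.

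**Figure D2:**
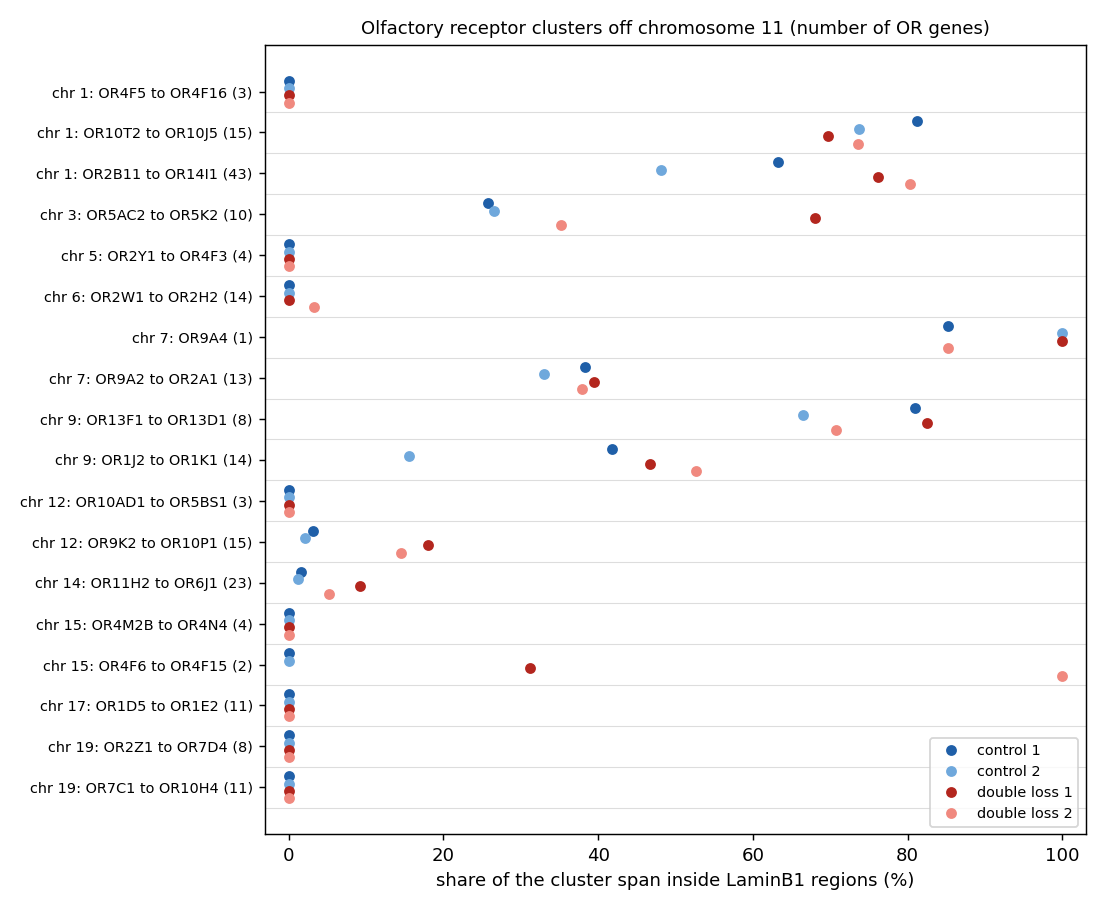
Covered share of each OR cluster off chromosome 11 with at least 3 OR genes or any covered sequence. Each point is 1 library (blue for control, red for double loss), and the number of OR genes is in brackets. On chromosome 1, OR2B11 to OR14I1 was at 48.2% and 63.2% in the controls and at 76.1% and 80.4% in the double loss lists, while the clusters of chromosomes 17 and 19 were at 0% throughout.

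Double loss libraries held more OR sequence off chromosome 11 in called regions. The mean covered share over all 220 genes was 29.0% and 23.3% in control 1 and 2, and 37.0% and 39.4% in double loss 1 and 2. Each double loss value exceeded each control value. The control mean was 26.1% ± 4.01 and the double loss mean 38.2% ± 1.71 (SD, n = 2 each). Over all 19974 protein-coding genes the means were 6.98% ± 0.512 and 7.45% ± 0.0927 (SD, n = 2 each). These include chromosome 20, which holds 0 of the 220 genes. As a whole, chromosome 20 went from 35.6% and 33.5% in control 1 and 2 to 12.6% and 13.0% in double loss 1 and 2. The backgrounds of other genes and windows below include it too, and its part in them was not tested. An exact permutation test (two-sided) gave p = 0.33 for the OR genes, the smallest p that 2 against 2 libraries allow. Gene bodies wholly inside regions numbered 53 in control 1, 40 in control 2, 71 in double loss 1 and 74 in double loss 2.

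OR genes on chromosome 11 did not separate the groups in this way. Their mean covered share was 33.0% and 26.3% in control 1 and 2, and 33.0% and 32.9% in double loss 1 and 2, and the groups overlapped. The means include OR8U8, OR8U9 and OR9G9, at 0% throughout. Their positions may come from alternate versions of the chromosome and not from its primary sequence. The off-chromosome-11 mean minus the chromosome 11 mean was -4.01 and -3.0 percentage points in the control libraries and 4.06 and 6.55 in the double loss libraries. This difference was 8.81 points higher in the double loss group, without overlap of the groups (exact permutation p = 0.33, two-sided, again the smallest possible). Class I receptors, families of number above 50, are absent off chromosome 11; all 14 families here belong to class II.

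**Figure D3:**
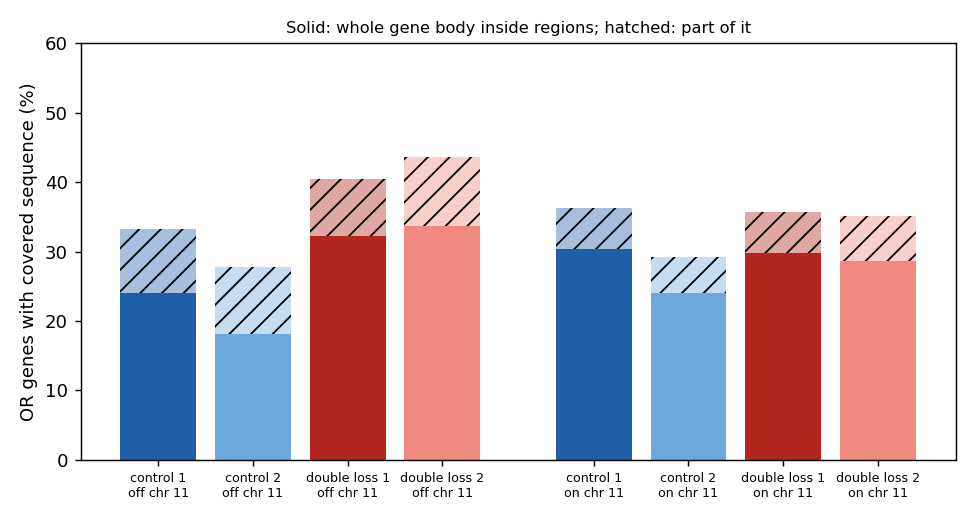
Percentage of OR genes with covered sequence in each library, off chromosome 11 (220 genes, left) and on chromosome 11 (171 genes, right). Solid bars are gene bodies wholly inside regions and hatched bars those partly inside; off chromosome 11 the solid bars stand for 53, 40, 71 and 74 genes, from left to right.

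Among the single genes, 9 OR genes off chromosome 11 passed limma over all genes at an adjusted p under 0.05, all higher in the double loss group and none lower. They are OR11L1, OR2W3 and OR2L5 on chromosome 1, OR13C9, OR1L3 and OR1L6 on chromosome 9, and OR4M1, OR4K1 and OR4K5 on chromosome 14. Each rose from 0% in control 1 and 2 to 100% in double loss 1 and 2, with a limma adjusted p = 0.0142. Having no spread within a group, they carry the same p. The test covered genes with covered sequence in at least 1 list, and these 9 genes entered it only through the double loss lists, so their count is a description. They are 8.26% of the 109 OR genes tested. Over all 3058 genes tested, limma called 1.67% higher and 0.981% lower. Of the tested genes that are not OR genes, 3.21% were called higher and 3.69% lower under 20 kb, and 6.80% and 9.71% under 2 kb. Of OR genes with covered sequence, 9 of 100 under 20 kb and 5 of 44 under 2 kb (11.4%) were called higher, so the gap to the background of higher calls was smaller for the shortest genes. On chromosome 11, 0 OR genes were called higher by limma and 1 was called lower; 1 was higher at an unadjusted p under 0.05.

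The 9 genes lie in 8 stretches gained by both double loss lists, of 8 to 62 kb. The shortest, at 247834001 to 247842000 on chromosome 1, ends just past OR11L1 (247840928 to 247841896). OR2W3, at 247895587 to 247896531, lies in a gained stretch of 10 kb and OR2L5, at 248013660 to 248024276, in one of 43 kb. OR13C9, at 104617248 to 104618204 on chromosome 9, lies in a stretch of 9 kb. OR1L3, at 122675130 to 122676104, lies in one of 26 kb, and OR1L6, at 122742303 to 122750783, in one of 14 kb. OR4M1, at 19773504 to 19783696 on chromosome 14, lies in the longest, of 62 kb. OR4K1 (19920263 to 19936757) and OR4K5 (19920607 to 19921578) overlap each other and share 1 stretch of 54 kb, so they are not independent. The nearest control 1 region lay 0.104 kb from OR11L1, 0.302 kb from OR1L6 and 1.72 kb from OR2L5. From OR13C9, OR2W3 and OR1L3 it lay 6.80, 8.47 and 27.9 kb away. In control 2 the nearest region lay 31.9, 76.3 and 77.7 kb from OR11L1, OR1L6 and OR2L5. A share of 0% thus did not always mean a gene far from regions. With 10 kb added on each side of every gene, limma called 0 genes; 15 of 117 OR genes tested (12.8%) were higher at an unadjusted p under 0.05, against 9.43% of all 3382 genes, and the differences of the 9 genes were then 44.0 to 100 points.

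Counted without a test, 23 of the 109 OR genes with covered sequence had both double loss lists above both controls, which is 21.1%; the same share over all 3058 genes was 21.5%, so this count is near the background. Of OR genes under 20 kb it was 21 of 100, against 9.46% of other genes of that length, and under 2 kb 5 of 44, against 7.77%. The other direction held for 1 gene, OR13G1 on chromosome 1, or 0.917%, against 13.9% of all genes, and 11.4% and 12.6% of genes that are not OR genes under 20 kb and 2 kb. OR13G1 was at 100% in both controls and at 35.7% and 55.2% in the double loss lists (limma adjusted p = 0.0850, not passing). A move across 50% covered share was found for 17 OR genes towards double loss, 15.6% of the 109, against 4.94% of all genes with covered sequence and 4.49% of those under 20 kb that are not OR genes. Under 2 kb it was 5 of 44 OR genes, against 6.80%. Towards control it was found for 0 OR genes, against 3.56%. OR genes within a cluster can share a region, so these counts are not of independent events. In all, the gained stretches inside the clusters summed to 442 kb in 41 pieces and the lost stretches to 92.0 kb in 20 pieces, while 1405 kb was called in all 4 lists.

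By cluster, both double loss lists lay above both controls in 6 of the 11 clusters with covered sequence, or 54.5%, and below in 1, or 9.09%. Over 3248 windows of 500 kb with covered sequence these shares were 35.0% and 18.0%. The spans of the 11 clusters run from 4.23 kb for OR9A4 to 2931 kb for OR11H2 to OR6J1, so windows of 500 kb are an unlike background. OR4F6 to OR4F15, 1 of the 6, was at 0% in both controls and entered only through the double loss lists. With 2 libraries a group no cluster could pass the exact permutation test, and after adjustment over the 11 clusters the lowest value was 0.524 (Benjamini-Hochberg).

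The largest cluster, OR2B11 to OR14I1 at 247449118 to 248702766 on chromosome 1, holds 43 OR genes. Its covered share was 63.2% in control 1, 48.2% in control 2, 76.1% in double loss 1 and 80.4% in double loss 2. Both double loss lists were higher; the group means were 55.7% ± 10.7 and 78.3% ± 2.99 (SD, n = 2 each). Chromosome 1 as a whole was at 19.3% to 21.4% in the 4 lists, and 500 kb on each side of the cluster at 22.2% to 31.1%. Without control 2 the difference was 15 points, against 22.6 with it. A stretch of 188 kb at the start, over OR2B11, OR2C3, OR2G2, OR2G3 and OR14L1, was called in all 4 lists, as was one of 56 kb near the end, over OR2T10 and OR2T11. The gains lay between them, 168 kb in 15 pieces against 9 kb lost in 4. They are concentrated over the OR2L and OR2M genes. OR2L3 was at 13.1% and 0% in the controls and at 100% in double loss 1 and 2, with a limma adjusted p = 0.104 that did not pass. OR2M4 was at 34.6% and 0% against 100% in both, and OR2T12 at 39.8% and 0% against 100% in both. OR2M3, the receptor known for a sulfur odorant of onion, was at 36.6% and 0% in the controls and at 63.4% and 100% in the double loss lists, without overlap but with an adjusted p = 0.494 by limma. OR2L13, a long gene model that spans several of its neighbours, was at 34.1% and 0% against 78.2% and 87.8%. OR2T5, OR2T29, OR2T35 and OR2T27, of a subfamily with near-identical copies, were the 4 members at 0% in all lists. In the sequence called in all 4 lists, control library reads of this cluster were at -0.08 (log2, double loss over control) relative to the median window, and LaminB1 reads at 0.05. With the upper 50% of regions by the authors' log2 fold, the cluster was 35.2 points higher in the double loss group, against 22.6 with all regions.

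**Figure D4:**
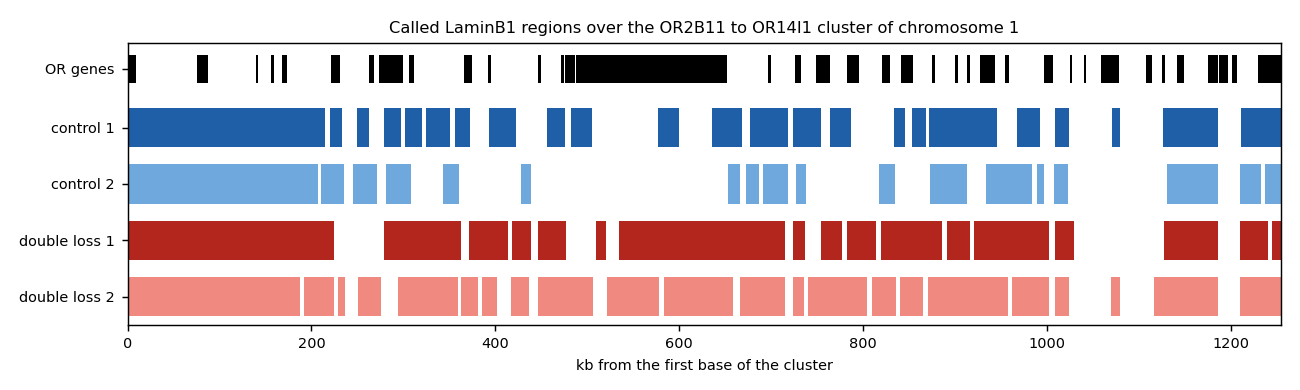
Called LaminB1 regions (coloured bars, 1 row per library) and OR genes (black) along the OR2B11 to OR14I1 cluster of chromosome 1; the horizontal axis is distance in kb from the first base of the cluster. The stretch of 188 kb on the left is called in all 4 lists, and the middle is filled more in the 2 double loss rows than in the control rows.

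The other long cluster of chromosome 1, OR10T2 to OR10J5 at 158398522 to 159536007, was the 1 cluster that was lower, at 81.3% and 73.7% in the controls and 69.8% and 73.6% with double loss. The values of control 2 and double loss 2 are close to each other. Its 15 OR genes did not follow the span: their mean covered share was 70.3% ± 11.1 in the controls, against 85.4% ± 0.280 with double loss (SD, n = 2 each). The span difference was -5.80 points, -2.02 without control 1, -9.58 without control 2, -3.87 without double loss 1 and -17.3 with the upper 50% of regions. OR6P1 was at 64.1% and 34.0% in the controls and at 100% in double loss 1 and 2, with a limma adjusted p = 0.152. OR10T2, OR6N2 and OR10J5 were at 100% in all 4 lists. The cluster lost 76 kb in 13 stretches, and only 2 of these touched an OR gene, OR6Y1 and OR6N1. Several lay among its 9 other protein-coding genes, which include the interferon-inducible DNA sensor genes IFI16 and AIM2. IFI16 was at 74.6% and 89.1% in the controls against 0% and 31.1% with double loss. CADM3, a cell adhesion gene, was at 83.2% and 86.4% against 56.8% and 0%. Neither passed (limma adjusted p = 0.359 and 0.568). FCER1A, a subunit of the IgE receptor, was at 100% in all 4 lists.

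Chromosome 9 has 2 covered clusters that behaved differently. OR1J2 to OR1K1, at 122447433 to 122801073 with 14 OR genes and no other protein-coding gene, was at 41.9% and 15.6% in control 1 and 2 and at 46.7% and 52.6% in double loss 1 and 2. Its flanks of 500 kb were at 0% in all 4 lists, so the OR cluster stood as an island. OR1J4 and OR1N1 were at 100% in all 4 lists. The gain lay at the far end, around OR1L3 and OR1L6. Without control 2 the difference between groups was 7.78 points and without control 1 it was 34.1, against 20.9 with both. OR13F1 to OR13D1, at 104504263 to 104695462 with 8 OR genes, was at 80.9%, 66.5%, 82.5% and 70.7%, and the groups overlapped. OR13F1, OR13C4 and OR13C3 at its start were at 100% in all 4 lists, and OR13C9 was its 1 called gene. Chromosome 9 as a whole was at 16.1% to 18.3%.

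On chromosome 3, OR5AC2 to OR5K2 at 98087173 to 98498631 holds 10 OR genes. It was at 25.8% and 26.5% in the controls and at 68.0% and 35.2% in the double loss lists. Double loss 1 set most of the gap: without it the difference was 9.11 points and without double loss 2 it was 41.9, against 25.5 with both. OR5H6 was at 100% in all 4 lists. OR5AC2 and OR5K1 were at 100% in double loss 1 and 0% in the other 3 lists. Chromosome 3 as a whole also went from 24.6% and 26.6% to 30.3% and 30.5%.

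On chromosome 12, OR9K2 to OR10P1 at 55126406 to 55637833 holds 15 OR genes, 10 of them at 0% in all 4 lists. It was at 3.13% and 2.15% in the controls and at 18.0% and 14.5% in the double loss lists, with 12 kb gained in both. Chromosome 12 as a whole also went from 15.9% and 14.8% to 18.9% and 20.1%. The regions of the 2 double loss lists lay mostly at different places: OR6C74 was at 100% in double loss 1 and OR6C3 and OR6C70 at 100% in double loss 2, with 0% in the other 3 lists for each. OR6C4 was at 0% and 77.5% against 100% in both (limma adjusted p = 0.514). With the upper 50% of regions the difference of the cluster was 2.74 points, against 13.6 with all regions.

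On chromosome 14, OR11H2 to OR6J1 at 19712936 to 22644352 holds 23 OR genes and 41 other protein-coding genes. It was at 1.64% and 1.23% in the controls and at 9.18% and 5.19% in the double loss lists. Chromosome 14 as a whole also went from 7.27% and 6.75% to 9.42% and 10.1%. Without double loss 1 the difference of the cluster was 3.75 points, against 5.75 with it. The gain was 2 stretches, of 62 and 54 kb, over OR4Q3, OR4M1 and OR4N2 and over OR4K1 and OR4K5. OR4Q3 was at 0% in both controls and at 100% and 3.81% in the double loss lists, and OR4N2 at 0% against 100% and 38.6%. LaminB1 enrichment in the called sequence of this cluster was weak in 3 lists, with a mean of the authors' log2 fold of 0.12 in control 2 and of 0.14 and 0.19 in double loss 1 and 2. The medians of these lists were 0.60, 0.51 and 0.50. In control 1 the mean was 0.59. With the upper 50% of regions, and with an equal number of regions per list, OR4M1, OR4K1 and OR4K5 had no difference left and the cluster was at -0.39 and -0.10 points. OR4M1 and OR4N2 have close relatives in the OR4M2B to OR4N4 cluster of chromosome 15, whose 4 genes were at 0% in all 4 lists; the part of shared reads was not tested.

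**Figure D5:**
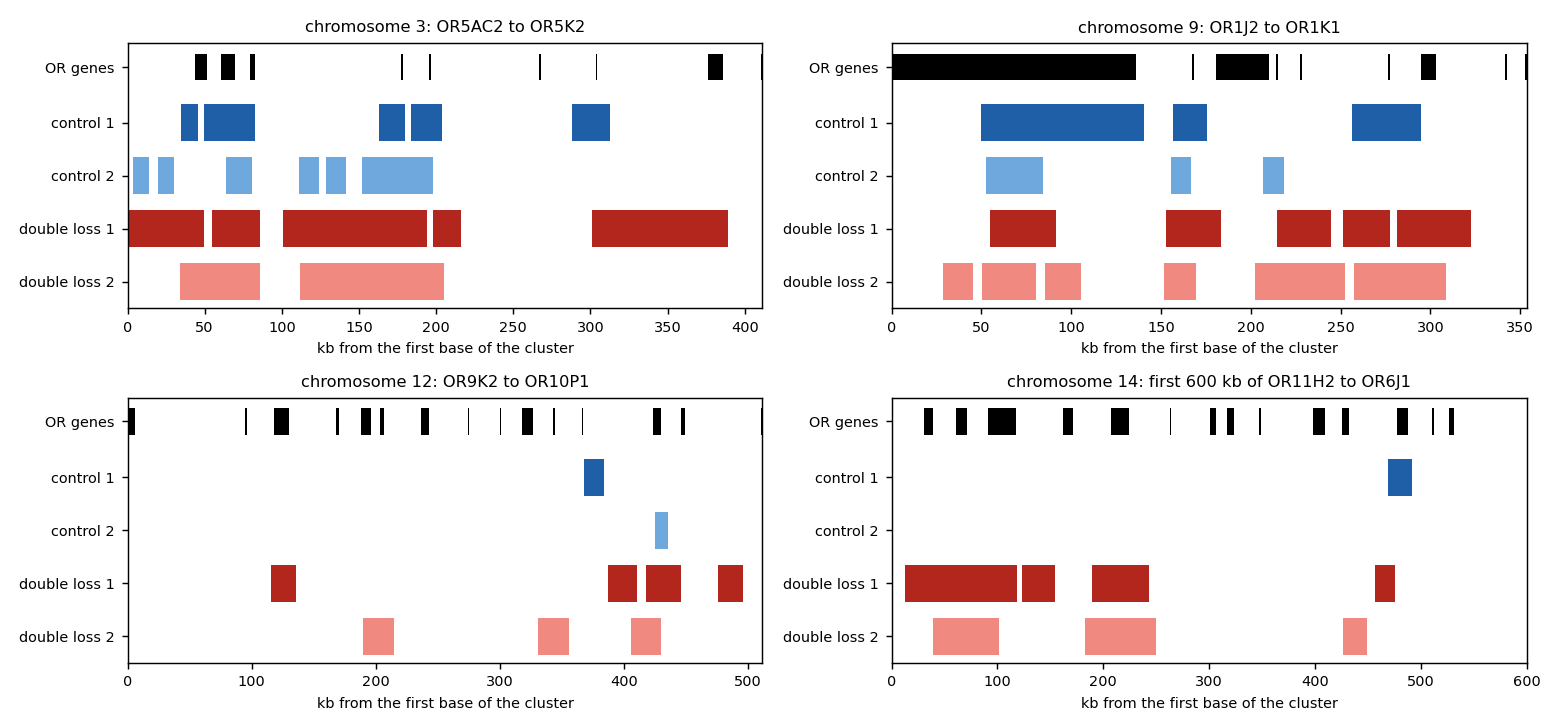
Called LaminB1 regions (coloured bars, 1 row per library) and OR genes (black) in 4 clusters, by distance in kb from the first base of the cluster. In the chromosome 9 panel the regions on the right are wider in the double loss rows; in the chromosome 14 panel 2 stretches, of 62 and 54 kb, are shared by the double loss rows and absent from the control rows.

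OR4F6 and OR4F15, at 101803509 to 101820197 near the end of chromosome 15, form a pair at 0% in both controls and at 31.1% and 100% in double loss 1 and 2. OR4F15 was at 65.0% and 100% (limma adjusted p = 0.226) and OR4F6 at 0% and 100%. Its difference of 65.6 points was 100 without double loss 1 and 31.1 without double loss 2. The pair had no difference left with the upper 50% of regions. On chromosome 7 the groups overlapped. OR9A2 to OR2A1, at 143026200 to 144322737 with 13 OR genes, was at 38.3%, 33.0%, 39.5% and 37.9%, and its flanks were higher, at 62.4% to 70.3%. OR6V1, OR2F2, OR6B1, OR2A5 and OR2A25 were at 100% in all 4 lists. The bitter taste receptor gene TAS2R41 in the same span was at 100% in both controls and at 86.1% and 0% in the double loss lists (limma adjusted p = 0.589). The lone gene OR9A4 was at 85.2%, 100%, 100% and 85.2%.

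Pooled over the cluster spans, genes that are not OR genes lay outside regions about as often as other genes, but clusters differed. Of 137, 120 were at 0% in all 4 lists, where 84.7% of all protein-coding genes were. Some, such as the 20 in OR7C1 to OR10H4, lie in spans free of regions, where 0% follows from the span. Covered sequence was found for 7 of 9 in OR10T2 to OR10J5 and 2 of 2 in OR2B11 to OR14I1. In OR9A2 to OR2A1 it was 7 of 19, and in OR11H2 to OR6J1 1 of 41. Of the 137, at least 50% was covered in all 4 lists for 6, against 4.28% of all protein-coding genes. Both double loss lists were higher for 1, TRIM58, and lower for 3, IFI16, CADM3 and TAS2R41. The 12 counted in the OR4F5 to OR4F16 span and the 4 in the OR4F17 span were all at 0%. Some of these, such as PRAMEF22 and KIR2DL2, may carry positions from alternate versions of the chromosome and not lie there. The counts for genes of the olfactory pathway elsewhere are too small to set apart from that 84.7%. Of 15 genes of olfactory signalling, which include the G protein gene GNAL, the adenylyl cyclase gene ADCY3 and the channel genes CNGA2 and CNGA4, 14 were at 0% in all 4 lists and STOML3 varied from 0.305% to 72.6% with overlapping groups. Of 10 genes for factors tied to OR gene choice, 8 were at 0%, among them LHX2, LDB1 and LBR. EBF1, an Ebf factor gene, was at 96.1% and 97.5% in the controls and at 94.3% and 93.8% with double loss, lower without overlap of the groups (limma adjusted p = 0.321, not passing). EMX2, a homeobox gene, was at 100% in 3 lists and 52.1% in double loss 2. The 9 matched trace amine and vomeronasal receptor genes were at 0%. Of these 3 lists, limma called 0 genes, and 0 had an unadjusted p under 0.05, the lowest being 0.05001 for EBF1. Of 13 matched OR genes with well known odorants, 12 were at 0% in all 4 lists and OR2M3, described above, was the other.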

How the data were processed

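LaminB1 CUT&RUN of 4 HCT116 libraries, 2 per group, was analysed as lists of called regions; the 2 IgG libraries have no values of their own here. The submitters' processing notes name Bowtie2 2.3.4.3, Picard and hg38. The region caller is not given in the sources used here. Per region the authors deposited whole-number counts of LaminB1 and control library reads, a p-value with its adjusted form, a score and a log2 fold. The deposited score is 100 times the log2 fold, which is log2 of LaminB1 over control reads less a constant of the list, checked on the values. Covered shares were computed as a percent of each gene or cluster from the deposited region edges.

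RefSeq genes of GRCh38.p14, which shares the primary coordinates of hg38, gave positions, printed from 1. Genes were kept by chromosome name, so some entries may carry positions from alternate versions of a chromosome. Shares over all protein-coding genes covered in at least 1 list were arcsine square root transformed and compared with limma 3.58.1 (R 4.3.3; trended variance, Benjamini-Hochberg, threshold 0.05). Library values were compared by exact permutation in Python 3.11.15. Scripts were checked on simulated data. Values were given for the genes with the largest differences of each cluster, its first and last genes, and the fixed lists. Members, lists and tests were chosen with earlier results of these data known. The backgrounds of genes under 20 kb and 2 kb, and a few named genes (those at 100% in all 4 lists, OR2T5, OR2T29, OR2T35, OR2T27, and the promoters shown), were chosen after seeing the values. Alternatives left out each library, blocked on replicate number, kept fewer regions, and changed flanks, gaps, transformation and averaging.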

Additional observations from a re-analysis of the deposited data

How the results depend on the processing

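The mean covered share of OR genes off chromosome 11 stayed higher in the double loss group in every alternative run, by 9.26 to 14.9 points without 1 library and by 9.97 to 14.6 points otherwise. So did its difference from chromosome 11, by 7.57 to 10.1 points without 1 library and 6.14 to 11.3 otherwise. Calls were less stable. OR genes called higher by limma numbered 28 without control 1, 20 without control 2, 20 without double loss 1 and 17 without double loss 2, and 1 to 4 were then called lower, against 9 and 0; the 9 genes were among the calls each time, and a single library left in a group is assumed to vary like the other group. The replicate numbers did not pair the samples (correlation of deviations -0.02 over 3058 genes): with the replicate block limma called 0 genes, with 12.8% of OR genes tested (14) and 6.34% of all genes higher at an unadjusted p under 0.05, and the mean difference of 12.1 points had an exact p of 0.5. Limma called 0 with 10 kb flanks. It called 11 with the upper 50% of regions, of which 4 are among the 9, and 6 with an equal number of regions, all 6 among the 9. Over all genes, calls were 51 higher and 30 lower, 106 to 377 and 121 to 228 without 1 library, 0 and 0 with the replicate block and with flanks, and 26 higher with equal region numbers. Clusters with both double loss lists higher numbered 4 to 8 in all alternatives, 4 with the upper 50% and with equal region numbers. Clusters with both lower numbered 0 with gaps over 500 kb, with means over OR gene bodies and with 50 kb flanks, and 2 with gaps over 2 Mb. The test over all genes without the filter on covered genes could not be fitted, since most shares have no spread. Read depth per bin is unknown, so shares rest on the authors' threshold.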
